A study of Arabidopsis thaliana with 12 samples.

Results

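The genes for glucosinolate and camalexin synthesis and breakdown in Arabidopsis thaliana were followed through the onset of flower formation. They were a list of 39 loci, matched to the array by locus name, of 28327 loci on the array. The list held 23 genes of the aliphatic branch, 8 of the indolic branch, 3 core enzymes that serve both branches, 2 myrosinases and 3 genes of camalexin synthesis. Of these, 33 passed the filter on dim probes and were tested, among 20906 tested loci. All samples were inflorescences that carried the transgene pAP1:AP1-GR together with the mutant alleles ap1-1 and cal-1. The transgene encodes APETALA1, a regulator of floral identity, joined to the hormone-binding part of a glucocorticoid receptor and driven by the AP1 promoter, and its product becomes active when dexamethasone is applied. The 4 groups were tissue at 2, 4 and 8 days after the first of daily treatments with 2 µM dexamethasone, and tissue of day 0. Every group carried the transgene and both mutations. Day 0 is labelled as collected before induction and was, per the study's methods, drenched with a mock solution and collected at once. None of the arrays held mock-treated tissue of a later day, so that APETALA1 activity, repeated drenching and the age of the tissue cannot be told apart. Each sample pooled the inflorescences of several plants, and there were 4 biologically independent sets, hence 16 RNA extracts on 12 arrays with 2 colours.

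Glucosinolates are sulphur-rich thioglucosides that mustard plants store against herbivores and microbes. Aliphatic ones are made from methionine, whose side chain is first lengthened, and indolic ones from tryptophan. In both branches cytochromes P450 of the CYP79 and CYP83 families make an aldoxime and oxidise it, and a C-S lyase, a glucosyltransferase and a sulfotransferase complete the core. Camalexin, an indole phytoalexin of Arabidopsis that accumulates after infection, branches off from the tryptophan-derived aldoxime. Myrosinases cleave glucosinolates when tissue is damaged, and in flowers both the stored compounds and the myrosinase cells are well known. The question here was how the 3 branches moved at each of the 3 steps.

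All changes are log2 ratios of the later over the earlier day from the authors' series table, 1 array per set and step, with the standard error (SE) of a limma model over the 12 arrays. A gene was called at an adjusted p below 0.05 (Benjamini-Hochberg over all tested probes) and a change of at least 1.8-fold, and was read from its brightest probe. The scanner files of sets 3 and 4 of the first step did not match the series table (16.3% and 20.2% of log10 ratios were equal, against 99.97% on the other 10 arrays), so that day 0 detection rests on sets 1 and 2. The day 4 to day 8 array of set 2 was scanned apart from its slide and carried 1346 marked spots, against 20 to 111 on the other arrays. Sets 1 and 2 of the later steps shared a slide, as did sets 3 and 4, and the first step had a slide of its own. No spot was saturated. For sets 3 and 4 of the first step, the slide, the marked spots and the saturation were read from the files that did not match. The floral organ identity genes AP3, SEP3, AG and PI were all higher at day 2 than at day 0, by 0.89 to 5.41, and of the meristem genes STM, WUS and KNAT1, STM and WUS were lower at day 8 than at day 0 (-1.81 and -1.37). In whole inflorescences, fewer cells of a type and less RNA per cell cannot be told apart.

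Genes of the tryptophan-derived branches were mostly higher at day 2 and lower at day 4, whereas those aliphatic genes that changed were mostly lower at day 2 and higher at day 4, and every change called at day 8 was a rise. None of the aliphatic calls held when the ratios were computed again from the scanner intensities, although each kept its direction at a smaller size, as described below. Of the indolic and camalexin calls, only a part held. At day 2 compared with day 0, 11 of the 33 tested genes were higher, beside 8.47% of all tested genes, and 5 were lower, beside 5.42%. Of the 11 higher genes 7 were indolic, 2 belonged to camalexin synthesis, 1 to the shared core and 1 to the aliphatic branch. Of the 5 lower genes 4 were aliphatic. At day 4 compared with day 2, 9 genes were higher (3.23% of all tested genes) and 9 lower (5.58%), but the count of higher genes was 4 without set 3 and 5 without set 2. The 9 higher ones were 8 aliphatic genes and the indolic regulator MYB34, and the 9 lower ones were 6 indolic genes and all 3 camalexin genes.

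At day 8 compared with day 4, 18 genes were higher (12.3% of all tested genes) and 0 lower (5.23%). At an unadjusted limma p below 0.05, 24 were higher and 0 lower, and without set 2 CYP83A1 was called lower (-0.90, adjusted p = 0.0372). Over the whole course, as the sum of the 3 steps, 20 genes rose to a higher day 8 level than that of day 0 (14.9% of all tested genes) and 1, CYP71A12, was lower (11.2%). No array measured day 8 against day 0 directly. In all, 29 of the 33 genes were called in at least 1 step and 7 in all 3 steps. The matching shares of all tested genes were not counted, so that these numbers only describe the list. Of the 7 genes, MYB122, CYP79B2, CYP83B1, SOT16, CYP71A13 and PAD3 rose, fell and rose again, whereas MYB34 fell and then rose at both later steps. The 4 genes called in no step were BCAT3, UGT74C1, FMO GS-OX4 and FMO GS-OX5. The counts of calls include MYB29 and MYB122, which passed the filter only through days at which they were high.

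The branches were set side by side as the median of their tested members on each array. At day 2 over day 0 this median lay between -1.05 and -0.01 for the 17 aliphatic genes, between 1.63 and 4.12 for the 8 indolic genes and between 4.82 and 5.52 for the 3 camalexin genes, and the 3 ranges did not overlap. At day 4 over day 2 the medians lay between 0.16 and 1.06, between -2.50 and -0.79 and between -4.16 and -3.15, in the same order of branches and again without overlap. At day 8 over day 4 they lay between 0.43 and 1.03, between 1.37 and 2.78 and between 0.37 and 2.28. There the camalexin range overlapped both others, and the aliphatic and indolic ranges stayed apart. With 3 members, the camalexin median was the value of CYP71A13 on every array of the first and last steps. The same held in sets 1 to 3 of the second step. CYP71A12 gave 0.07 to 1.15 at day 2 over day 0, below the indolic range, so that the ranges do not describe every member. The fitted medians at the 3 steps were 0.02, 0.11 and 1.09 for the 33 genes together and -0.10, 0.06 and -0.08 for all tested genes.

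**Figure D1:**
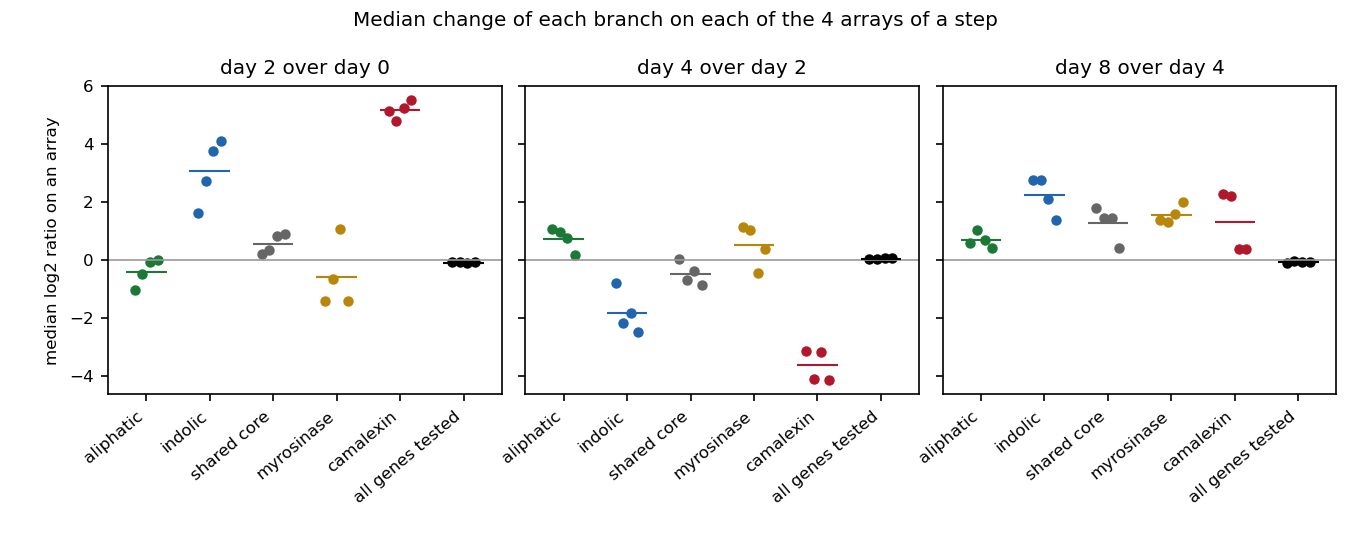
Median log2 ratio of the tested genes of each branch (y axis) on each of the 4 arrays of a step, with a line at the mean of the 4 arrays, for day 2 over day 0, day 4 over day 2 and day 8 over day 4. Points of a branch run from set 1 to set 4; the camalexin medians are all above 4.8 at the first step and all below -3.1 at the second, while those of all tested genes stay within 0.12 of 0.

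Of the regulators of the aliphatic branch, MYB28 was called higher at day 4 over day 2 and MYB29 at day 8 over day 4. MYB28 (AT5G61420), the main activator of aliphatic genes, stood at -1.06, -0.52, -0.96 and -0.59 in sets 1 to 4 at day 2 over day 0. It was lower on every array, but its fitted change of -0.78 ± 0.10 (SE, n = 4, adjusted p = 4.33e-05) was short of 1.8-fold. At day 4 over day 2 it gave 1.17, 1.04, 1.00 and 0.97, a rise of 1.05 ± 0.10 (SE, n = 4, adjusted p = 9.74e-06) with little spread between sets. In the last step, day 8 over day 4, it gave 0.53, 1.12, 0.68 and 0.93, again higher on every array and again short of the fold minimum (0.81 ± 0.10, SE, n = 4, adjusted p = 2.41e-05). The net change from day 0 to day 8 was a rise of 1.08 ± 0.17 (SE, n = 4, adjusted p = 0.000264). For this net change the other tested probes of MYB28 gave 0.82, short of the fold minimum, and 0.85, which was called (adjusted p = 0.00720 and 0.0117).

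MYB29 (AT5G07690), a second activator of the same branch, was not well above background at days 0, 2 and 4 and was so in 3 of 4 channels of day 8. It therefore passed the filter only through the day at which it was high, and its call is no separate evidence for the branch. Its ratios were listed at 0 on every array of the first step. From the arrays of day 8 over day 4 it gave 2.29, 2.10, 2.10 and 2.39, and the rise of 2.22 ± 0.20 (SE, n = 4, adjusted p = 2.62e-06) therefore starts from a day 4 level with only an upper limit. For such genes a lower bound on the fold was taken from background-corrected intensities, to which 50 units are added per channel, with the dim day set no lower than the faintest probe well above background. For MYB29 this gave at least 1.06-fold. MYB76, the third regulator of the branch, did not pass the filter.

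Of the 8 aliphatic genes that rose at day 4, 4 lengthen the methionine side chain. BCAT4 (AT3G19710), which removes the amino group of methionine at the entry to the pathway, gave 1.86, 2.72, 2.83 and 0.17 at day 4 over day 2 (1.89 ± 0.44, SE, n = 4, adjusted p = 0.00631). MAM1 (AT5G23010), the methylthioalkylmalate synthase that adds a carbon, gave 1.40, 3.52, 2.93 and 0.23 (2.02 ± 0.59, SE, n = 4, adjusted p = 0.0225). Both genes were higher on all 4 arrays, by least in set 4, and MAM1 was well above background in only 1 of 6 channels of day 2. BAT5 (AT4G12030), a transporter of the chain-elongation acids into the chloroplast, gave 3.28, 2.48, 2.21 and 1.84 (2.46 ± 0.42, SE, n = 4, adjusted p = 0.000898). It was not well above background at day 2, and the bound was at least 1.096-fold. IPMDH1 (AT5G14200), the isopropylmalate dehydrogenase of the cycle, gave 1.07, 2.85, 1.35 and 0.00 and rose by 1.32 ± 0.39 (SE, n = 4, adjusted p = 0.0232, at least 1.03-fold).

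At day 2 over day 0 only IPMDH1 of these genes had been called. It fell by 1.85 ± 0.39 (SE, n = 4, adjusted p = 0.00187, at least 1.097-fold), with values of -1.98, -2.15, -1.87 and -1.41 that did not reach 0 in any set. BCAT4 (-2.10, -0.68, -1.28 and -0.01), BAT5 (-2.30, -1.34, 0.57 and -0.09) and MAM1 (-2.32, -0.47, 0.87 and 0.88) were not called. In each of these 3, set 1 was the lowest array, and sets 3 and 4 of BAT5 and MAM1 were near or above 0. None of the 5 tested elongation genes was called at day 8 over day 4, and BAT5 alone had a net rise by day 8 (2.64 ± 0.73, SE, n = 4, adjusted p = 0.00997). This net call was lost in 4 of 18 alternatives, among them without set 2 or set 3 (adjusted p = 0.0825 and 0.0914). MAM1 had a called net rise without set 1 or set 4 (3.19 and 2.98), and BCAT4 without set 4 (1.63). BCAT3, a chloroplast aminotransferase of the cycle, stayed between -0.27 and 0.11 at the 3 steps. MAM3 and IIL1 were not tested.

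The aliphatic core enzymes followed more than a single course. CYP83A1 (AT4G13770), which oxidises methionine-derived aldoximes, gave -2.20, -1.61, -1.02 and -0.97 at day 2 over day 0, a fall of 1.45 ± 0.32 (SE, n = 4, adjusted p = 0.00286). It then gave 0.88, 2.35, 1.23 and 0.92 at day 4 over day 2 (1.35 ± 0.32, SE, n = 4, adjusted p = 0.00778), so that no array of either step lay on the other side of 0. CYP79F1 (AT1G16410), which makes those aldoximes, gave 1.38, 1.78, 2.29 and -0.02 at day 4 over day 2 (1.36 ± 0.38, SE, n = 4, adjusted p = 0.0173), with set 4 at no change, and was well above background in 1 of 6 channels of day 2. Neither P450 was called at day 8 over day 4, where CYP83A1 stood at -0.57, 0.50, -0.49 and -1.56.

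The sulfotransferases, which act at the last core step, were both called at day 8 over day 4. SOT17 (AT1G18590) was the only aliphatic gene higher at day 2, with 0.39, 2.07, 2.75 and 3.31 (2.13 ± 0.49, SE, n = 4, adjusted p = 0.00329). It rose again at day 8 over day 4, with 3.55, 3.50, 2.97 and 1.90 (2.98 ± 0.49, SE, n = 4, adjusted p = 0.000237), the largest aliphatic change of that step. SOT18 (AT1G74090) gave -1.05, 0.42, 0.00 and 0.57 at the first step and was then higher at both later ones, by 1.08 ± 0.16 and 1.09 ± 0.16 (SE, n = 4, adjusted p = 0.000245 and 8.93e-05). The glucosyltransferase UGT74C1 lay between -0.39 and 0.69 and was called at no step. CYP79F2 was not tested.

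Of the enzymes that modify the finished side chain, 2 fell at day 2. AOP3 (AT4G03050), a dioxygenase that forms hydroxyalkyl glucosinolates, gave -1.73, -1.61, -1.77 and -1.43 (-1.63 ± 0.24, SE, n = 4, adjusted p = 0.000121), the smallest spread among the 5 falls of this step. Its second probe gave -0.91 and was not called (adjusted p = 0.0625). FMO GS-OX2 (AT1G62540), an S-oxygenase, fell by 1.41 ± 0.25 (SE, n = 4, adjusted p = 0.000531) with -1.79, -1.25, -0.96 and -1.63. It rose at day 8 over day 4 with 0.62, 1.03, 1.34 and 2.56 (1.38 ± 0.25, SE, n = 4, adjusted p = 0.000448), as did FMO GS-OX3 (AT1G62560) with 1.197, 1.87, 1.44 and 0.89 (1.35 ± 0.27, SE, n = 4, adjusted p = 0.00100). FMO GS-OX4 moved in the manner of the indolic genes but by less than the fold minimum, with 0.73, -0.75 and 0.72 at the 3 steps. FMO GS-OX5 stayed between 0.03 and 0.26, and FMO GS-OX1 and AOP2 were not tested.

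The 3 regulators of the indolic branch did not move together. MYB51 (AT1G18570), an activator of indolic genes known for its response to microbial elicitors, gave 5.52, 6.16, 6.80 and 6.36 at day 2 over day 0. The rise of 6.21 ± 0.26 (SE, n = 4, adjusted p = 3.00e-09), or 74.1-fold, was the second largest among the 33 genes. It gave -3.55, -3.86, -3.66 and -3.69 at day 4 over day 2 (-3.69 ± 0.26, SE, n = 4, adjusted p = 1.17e-06). In the last step it was 1.19 and 0.48 in sets 1 and 2 but -0.80 and -0.20 in sets 3 and 4, and was not called (0.17 ± 0.26, SE, n = 4, adjusted p = 0.610).

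MYB34 (AT5G60890), the activator known for indolic glucosinolates of roots and for the tryptophan pathway, ran the other way at the first 2 steps. At day 2 over day 0 it gave -1.79, -0.59, -0.77 and -0.41, a fall of 0.89 ± 0.25 (SE, n = 4, adjusted p = 0.0113) that passed the fold minimum narrowly and did so no longer once each array's median was set to 0 (-0.80). Without set 1 it was -0.57 (adjusted p = 0.0661) and without set 3 it was -0.92 (adjusted p = 0.0714). It gave 1.56, 0.62, 1.04 and 1.11 at day 4 over day 2 (1.08 ± 0.25, SE, n = 4, adjusted p = 0.00647) and 2.57, 2.33, 2.11 and 1.08 at day 8 over day 4 (2.02 ± 0.25, SE, n = 4, adjusted p = 2.87e-05). The day 4 call was lost without set 3 (1.11, adjusted p = 0.0645). On its other tested probes MYB34 gave 0.77, short of the fold minimum, and 1.05, which was called, at day 4 over day 2 (adjusted p = 0.0119 and 0.00575). By day 8 its net rise of 2.22 ± 0.44 (SE, n = 4, adjusted p = 0.00121) was close to that of MYB51 (2.68 ± 0.45, SE, n = 4, adjusted p = 0.000368), although the difference between them was not tested.

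MYB122 (AT1G74080), the third activator, was dim: it was not well above background at day 0 and was so in 4 of 6 channels of day 2, 1 of 8 of day 4 and 4 of 4 of day 8. It therefore passed the filter only through days 2 and 8, at which it was high, and its calls are no separate evidence for the branch. It gave 0.75, 0.06, 3.84 and 1.89 at day 2 over day 0 (1.63 ± 0.56, SE, n = 4, adjusted p = 0.0297, at least 1.13-fold), a spread wider than its mean. At day 4 over day 2 it gave -0.11, -2.40, -3.20 and -2.60 (-2.08 ± 0.56, SE, n = 4, adjusted p = 0.0153). At day 8 over day 4 it gave 3.67, 3.35, 2.06 and 2.71 (2.95 ± 0.56, SE, n = 4, adjusted p = 0.000756). The fall at day 4 was not called without set 2, set 3 or set 4 (adjusted p = 0.0719, 0.0564 and 0.0854). The rise at day 2 was not called without set 3 or set 4 (adjusted p = 0.113 and 0.161). Without sets 3 and 4 of the first step, whose scanner files did not match, the first rise was 0.40 (adjusted p = 0.682).

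CYP79B2 and CYP79B3 turn tryptophan into indole-3-acetaldoxime, from which both indolic glucosinolates and camalexin are made. CYP79B2 (AT4G39950) gave 2.96, 5.38, 5.59 and 6.21 at day 2 over day 0 (5.03 ± 0.44, SE, n = 4, adjusted p = 1.72e-06), with set 1 well below the others. It gave -1.09, -2.29, -1.84 and -2.76 at day 4 over day 2 (-1.99 ± 0.44, SE, n = 4, adjusted p = 0.00449) and 3.00, 3.22, 2.20 and 1.71 at day 8 over day 4 (2.53 ± 0.44, SE, n = 4, adjusted p = 0.000361). Its net change by day 8 was 47.6-fold.

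CYP79B3 (AT2G22330) was called at the first and the last step. It gave -0.04, 1.61, 1.85 and 2.82 at day 2 over day 0 (1.56 ± 0.43, SE, n = 4, adjusted p = 0.0104), and this call was lost without the 2 arrays of unmatched scanner files (0.79, adjusted p = 0.324). At day 4 over day 2 it gave 1.795, 0.65, 1.18 and -0.60 and was not called. The arrays of day 8 over day 4 gave 4.09, 4.63, 3.27 and 3.10, and its rise of 3.77 ± 0.43 (SE, n = 4, adjusted p = 1.54e-05) was the largest of that step among the 33 genes. By day 8 it was 67.9-fold above day 0, the largest net change of the list.

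The other indolic enzymes shared the rise, fall and second rise, except for CYP81F2. CYP83B1 (AT4G31500), which oxidises the indolic aldoxime, gave 2.06, 2.75, 3.69 and 4.30 at day 2 over day 0 (3.20 ± 0.34, SE, n = 4, adjusted p = 9.03e-06). It fell at day 4 by 1.70 ± 0.34 and rose at day 8 by 2.29 ± 0.34 (SE, n = 4, adjusted p = 0.00227 and 0.000108). SOT16 (AT1G74100), the indolic sulfotransferase, gave 1.19, 2.73, 3.50 and 3.93 at the first step, a rise of 2.84 ± 0.39, followed by a fall of 1.75 ± 0.39 and a rise of 2.23 ± 0.39 (SE, n = 4, adjusted p = 9.07e-05, 0.00527 and 0.000438). CYP81F2 (AT5G57220), which hydroxylates the indole ring and is needed for a defence response to microbes, gave 4.07, 5.12, 5.24 and 5.98 at day 2 and then -2.89, -3.54, -3.45 and -2.84 at day 4 (5.10 ± 0.33 and -3.18 ± 0.33, SE, n = 4, adjusted p = 1.40e-07 and 2.02e-05). At day 8 over day 4 it gave 1.34 and 1.49 in sets 1 and 2 against -0.47 and -0.24 in sets 3 and 4, and, like MYB51, was not called. Without set 2 or set 3 the fall of SOT16 at day 4 was no longer called (adjusted p = 0.0571 and 0.0585). All 8 indolic genes were called higher at day 8 than at day 0, between 2.22 and 6.09. The call of MYB122 (adjusted p = 0.0494) was lost in 10 of 18 alternatives, the replicate block among them (adjusted p = 0.0742), and changed sign in 1. With normexp and loess, CYP79B2 alone of the 8 kept its net call.

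Replicate set 1 was the lowest of the 4 arrays at day 2 over day 0 for 7 of the 8 indolic genes, 12 of the 17 aliphatic genes, 3 of 3 shared genes, 1 of 2 myrosinases and 0 of 3 camalexin genes. It was the lowest for 23.6% of all tested genes with 4 values. The first and second steps share the day 2 extract, and for CYP79B2, CYP83B1 and SOT16 set 1 also had the smallest fall at day 4.

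All 3 core enzymes that serve both branches rose at the last step. GGP1 (AT4G30530), a peptidase that trims the glutathione conjugate, gave 2.32, 1.95, 1.96 and 0.87 at day 8 over day 4 (1.78 ± 0.17, SE, n = 4, adjusted p = 4.11e-06). SUR1 (AT2G20610), the C-S lyase, gave 1.07, 1.15, 1.27 and 0.41 (0.97 ± 0.14, SE, n = 4, adjusted p = 7.89e-05). UGT74B1 (AT1G24100), the glucosyltransferase, gave 1.79, 1.46, 1.44 and 0.06 (1.19 ± 0.30, SE, n = 4, adjusted p = 0.00452). In all 3 genes set 4 was the lowest array, and without set 2 the call of UGT74B1 was lost (0.99, adjusted p = 0.0684). At day 2 over day 0 UGT74B1 was called, with 0.16, 0.78, 1.62 and 1.81 (1.09 ± 0.30, SE, n = 4, adjusted p = 0.00912), but not without the 2 arrays of unmatched scanner files (0.47, adjusted p = 0.349). SUR1 and GGP1 stood at 0.51 and 0.52 there, although a second probe of SUR1 was called (1.08, adjusted p = 0.00728).

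The myrosinases TGG1 (AT5G26000) and TGG2 (AT5G25980), which in leaves reside in guard cells and phloem-associated myrosin cells, were higher at day 8 than at day 4. TGG1 gave 1.41, 1.20, 1.67 and 2.05 (1.58 ± 0.35, SE, n = 4, adjusted p = 0.00204) and TGG2 gave 1.36, 1.39, 1.52 and 1.96 (1.56 ± 0.37, SE, n = 4, adjusted p = 0.00358), close in every set. At day 2 over day 0 TGG1 gave -1.15, -0.73, 1.15 and -1.38, and TGG2 gave -1.70, -0.56, 0.97 and -1.45. Set 3, whose scanner file did not match, was on the other side of 0 for both genes, and neither was called. Without set 3 at all steps both were lower at day 2 (-1.09 and -1.26, adjusted p = 0.00392 and 0.00533). FAMA, a guard cell and myrosin cell regulator, gave -1.45, -1.17, 0.60 and -1.34 at the same step and so was also above 0 only in set 3, while MYB60, a guard cell regulator, was called lower (-1.12). Both markers of these cells were higher at day 8 over day 4, MYB60 by 1.28 and FAMA by 1.74 (n = 3, since the spots of set 2 were marked), and their medians over the arrays lay between 0.91 and 2.40. SUC2, a marker of phloem companion cells, gave 0.60, -0.23 and -0.25 at the 3 steps and was called at none. The part of any of these cells in the result was not tested.

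The largest rise at day 2 and the largest fall at day 4 of the list were both those of a camalexin gene. PAD3 (AT3G26830), the P450 of the last step of camalexin synthesis, gave 6.67, 6.58, 6.63 and 6.49 at day 2 over day 0. The rise of 6.59 ± 0.26 (SE, n = 4, adjusted p = 1.94e-09), or 96.5-fold, had nearly the same size in every set. At day 4 over day 2 PAD3 gave -4.52, -4.44, -5.06 and -4.84 (-4.72 ± 0.26, SE, n = 4, adjusted p = 2.98e-07). At day 8 over day 4 it gave 4.12 and 4.54 in sets 1 and 2 against 2.55 and 2.83 in sets 3 and 4, higher in all (3.51 ± 0.26, SE, n = 4, adjusted p = 4.62e-07).

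CYP71A13 (AT2G30770), which converts indole-3-acetaldoxime to the nitrile on the way to camalexin, had the same order of steps. It gave 5.14, 4.82, 5.24 and 5.52 at day 2 (5.18 ± 0.31, SE, n = 4, adjusted p = 5.61e-08) and -3.15, -4.13, -3.17 and -4.04 at day 4 (-3.62 ± 0.31, SE, n = 4, adjusted p = 4.14e-06). At day 8 over day 4 it gave 2.28 and 2.20 in sets 1 and 2 but 0.37 and 0.39 in sets 3 and 4, and the call (1.31 ± 0.31, SE, n = 4, adjusted p = 0.00298) averages over both pairs.

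CYP71A12 (AT2G30750), a close relative that also forms indole nitriles, took another course. It gave 1.15, 0.73, 0.72 and 0.07 at day 2 over day 0 (0.67 ± 0.17, SE, n = 4, adjusted p = 0.00612), short of the fold minimum. At day 4 over day 2 it gave -2.63, -3.73, -2.83 and -4.16 (-3.34 ± 0.17, SE, n = 4, adjusted p = 1.89e-07), a fall close to that of CYP71A13. It did not recover, with 0.16, -0.41, 0.09 and -0.63 at day 8 over day 4, and its net change by day 8 was -2.86 ± 0.29 (SE, n = 4, adjusted p = 9.15e-06). At day 8 it was well above background in 1 of 4 channels, so that the size of this change is uncertain, and with normexp and loess the net change was 0.030 (adjusted p = 0.951). Related genes such as this pair, the sulfotransferases and the myrosinases may share signal on an array, which was not tested.

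**Figure D2:**
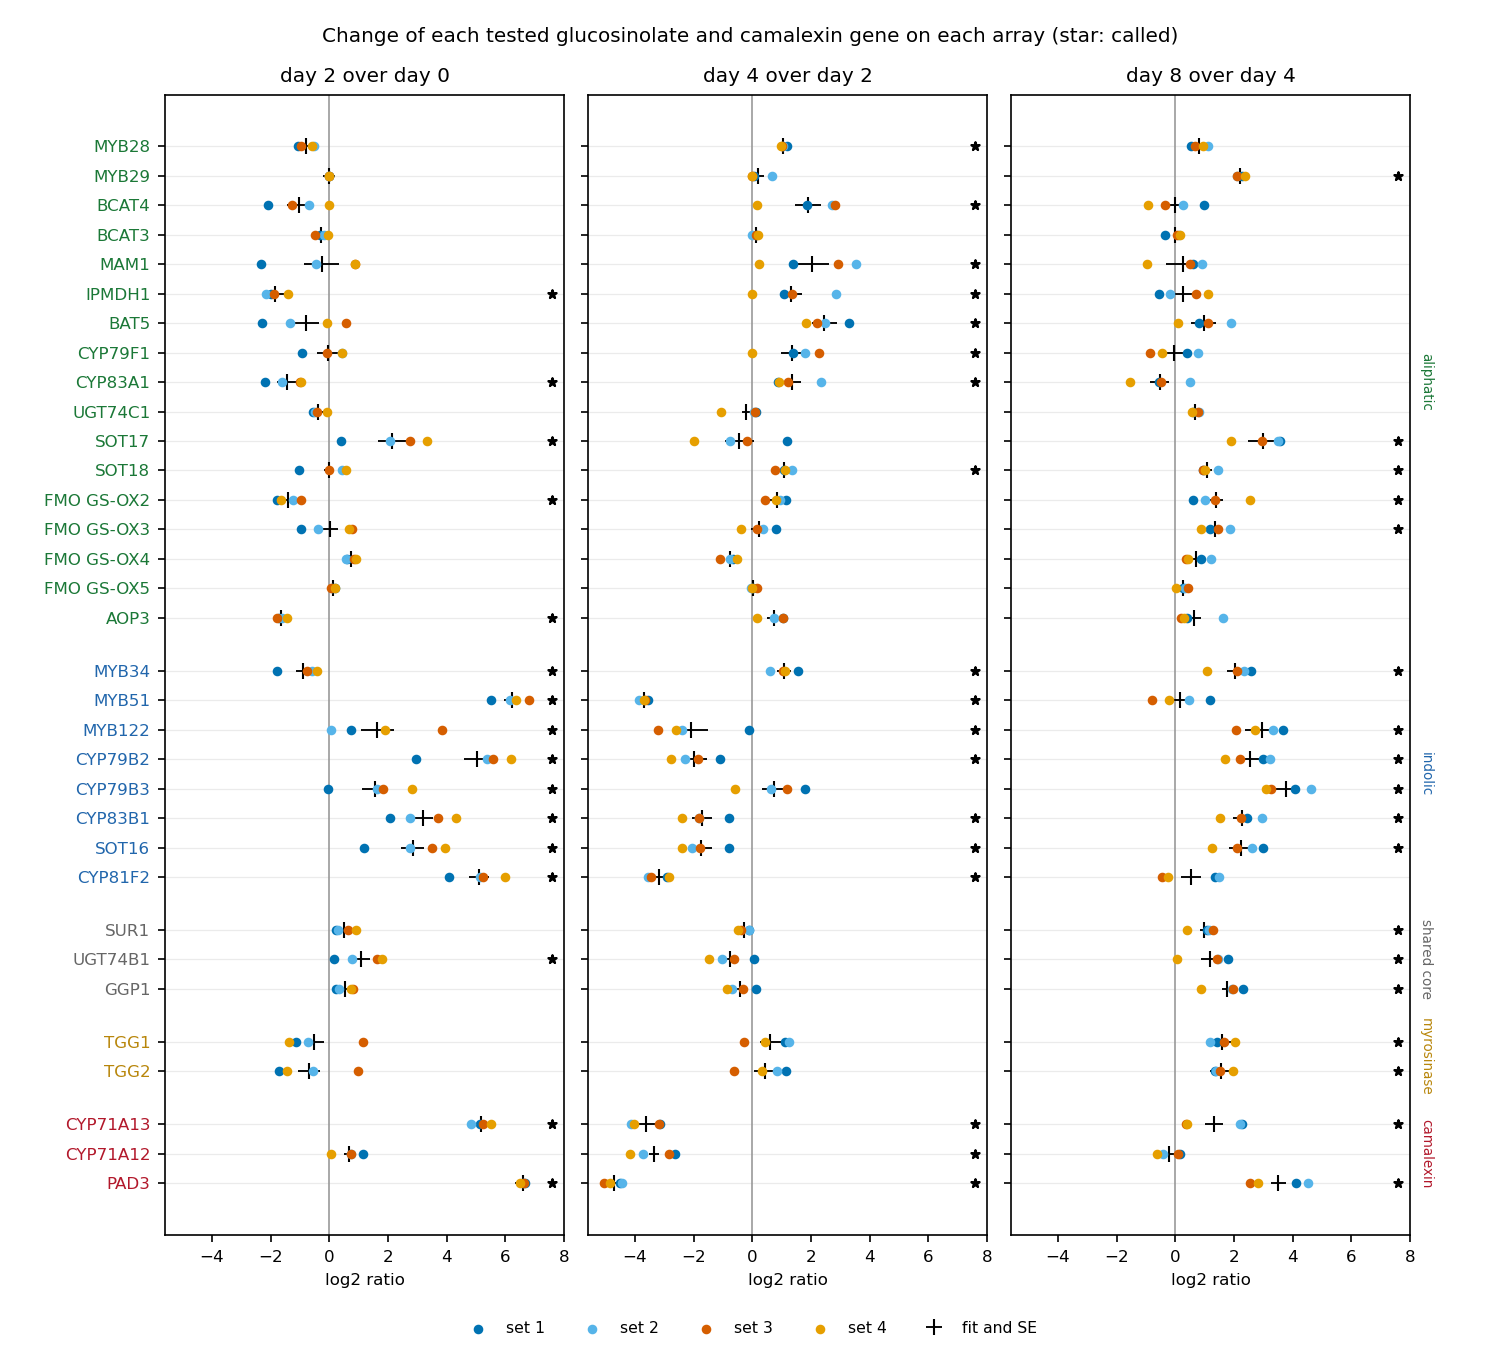
Log2 ratio of the later over the earlier day (x axis) for each of the 33 tested genes (rows, coloured by branch) at the 3 steps. Points are the arrays of sets 1 to 4, black ticks with bars are the fitted change and its SE, and stars mark called genes; MYB51, CYP81F2, CYP71A13 and PAD3 lie above 4 on every array at day 2 over day 0, and no gene is called lower at day 8 over day 4.

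In the day 8 over day 4 arrays the slide of sets 1 and 2 and the slide of sets 3 and 4 differed for many of these genes. Both arrays of sets 1 and 2 were above both arrays of sets 3 and 4 for 17 of the 33 genes, against 18.3% of all tested genes, and below them for 4, against 15.9%. The mean was 4.33 in sets 1 and 2 and 2.69 in sets 3 and 4 for PAD3, 2.24 and 0.38 for CYP71A13, 1.41 and -0.35 for CYP81F2, and 0.83 and -0.50 for MYB51. TGG1, TGG2, IPMDH1 and FMO GS-OX2 were the 4 genes with the reverse order. Slide and pair of sets cannot be told apart.

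**Figure D3:**
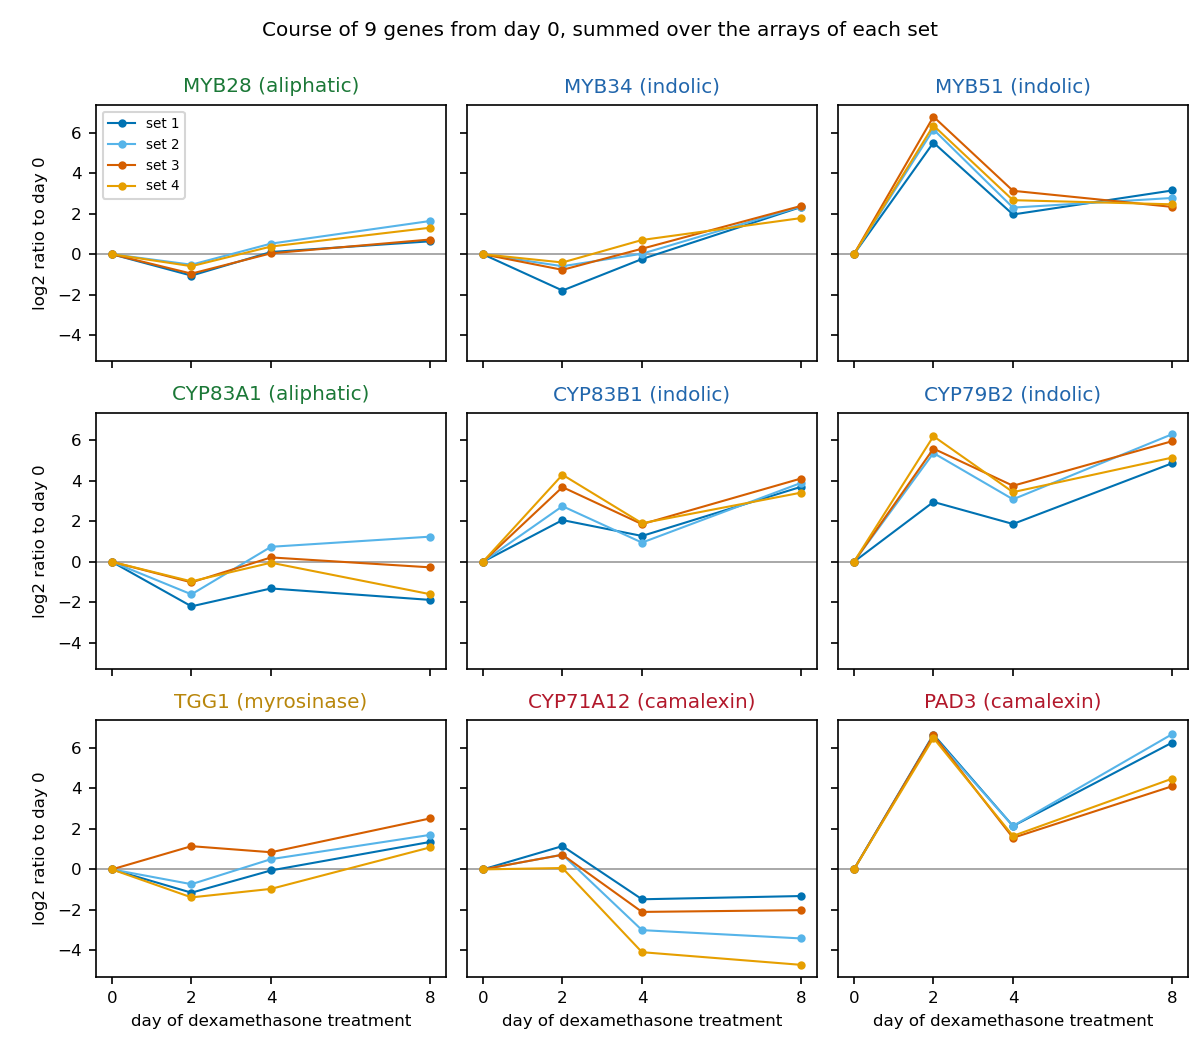
Course of 9 genes over days 0, 2, 4 and 8 (x axis) as log2 ratio to day 0 (y axis), obtained in each set by adding its arrays. PAD3, MYB51, CYP79B2 and CYP83B1 are higher at day 2 than at day 4 in every set, MYB34 is lowest at day 2 in every set, and CYP71A12 ends below day 0 in every set.

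None of the aliphatic calls held when the ratios were made in another way. All ratios were computed again from the intensities of the 10 matching arrays with normexp and loess, which adds 50 units to each channel and so draws ratios of dim genes towards 0, and which leaves 2 arrays at the first step. With these, 5 of 8 indolic calls held at day 2 (MYB51, CYP79B2, CYP83B1, SOT16 and CYP81F2), 3 of 7 at day 4 and 4 of 6 at day 8. Of the camalexin calls 2 of 2 held at day 2, 2 of 3 at day 4 and 0 of 2 at day 8, where PAD3 gave 1.82 (adjusted p = 0.0603) and CYP71A13 0.16 (adjusted p = 0.807). Of the aliphatic calls 0 of 5, 0 of 8 and 0 of 5 held at the 3 steps. Each kept its direction at a smaller size. AOP3 and CYP83A1 at day 2 (-0.39 and -0.55, adjusted p = 0.00363 and 0.0198) missed only the fold minimum. The same held for SOT18 at day 4 and at day 8 (0.72 and 0.74, adjusted p = 0.0455 and 0.0252). The other aliphatic calls also had an adjusted p above 0.05. The aliphatic changes at day 4 were also sensitive to single sets: without set 2 or set 3 the calls of BCAT4 (1.52 or 1.58), MAM1 (1.42 or 1.59), IPMDH1 (0.83 or 1.22) and CYP79F1 (1.16 or 1.01) were lost, as were those of IPMDH1 and CYP79F1 without set 1 (1.41 and 1.34) and that of CYP83A1 without set 3 (1.29). The rise of SOT17 at day 2 was 1.23 (adjusted p = 0.166) without the 2 arrays of unmatched scanner files.

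Neighbouring steps of the pathway were read from 42 further genes, of which 39 were tested. Of these, 18 were higher and 4 lower at day 2 over day 0, beside 8.47% and 5.42% of all tested genes. Day 4 over day 2 gave 5 higher and 13 lower, beside 3.23% and 5.58%, and day 8 over day 4 gave 23 higher and 0 lower, beside 12.3% and 5.23%. At an unadjusted limma p below 0.05, 2 were lower at that last step. Among the 7 genes for the supply of tryptophan, 6 were higher at day 2, 4 lower at day 4 and 5 higher at day 8. Their largest changes at the first 2 steps were in ASB1, a subunit of anthranilate synthase, with 3.61 ± 0.37 and -2.79 ± 0.37 (SE, n = 4, adjusted p = 8.20e-06 and 0.000140). The 3 further camalexin genes, the regulator WRKY33 and the glutathione transferases GSTF6 and GSTU4, were all higher, lower and higher again. GSTU4 had the largest rise of the 42 genes at day 2, with 7.28, 7.25, 8.23 and 8.68 (7.86 ± 0.27, SE, n = 4, adjusted p = 1.01e-09), and at day 8 (5.18 ± 0.27, SE, n = 4, adjusted p = 5.90e-08). GSTF6 had the largest fall at day 4, with -2.71, -3.66, -3.57 and -3.69 (-3.41 ± 0.31, SE, n = 4, adjusted p = 7.34e-06).

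Of 3 further genes for side chain elongation, 2 were lower at day 2 and the same number higher at day 4. GSTF11 (AT3G03190), a glutathione transferase known for co-expression with aliphatic genes, was counted here under sulphur donor and glutathione supply. It had the largest fall of the 42 genes at day 2, with -3.08, -0.56, -1.35 and -1.07 (-1.52 ± 0.37, SE, n = 4, adjusted p = 0.00526). It also had the largest rise at day 4, with 2.49, 2.33, 1.83 and 1.08 (1.93 ± 0.37, SE, n = 4, adjusted p = 0.00201). Both glucosinolate transporters, GTR1 and GTR2, were called only at day 8 over day 4, higher by 1.48 ± 0.13 and 1.34 ± 0.12 (SE, n = 4, adjusted p = 1.49e-06 and 2.42e-06).

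**Figure D4:**
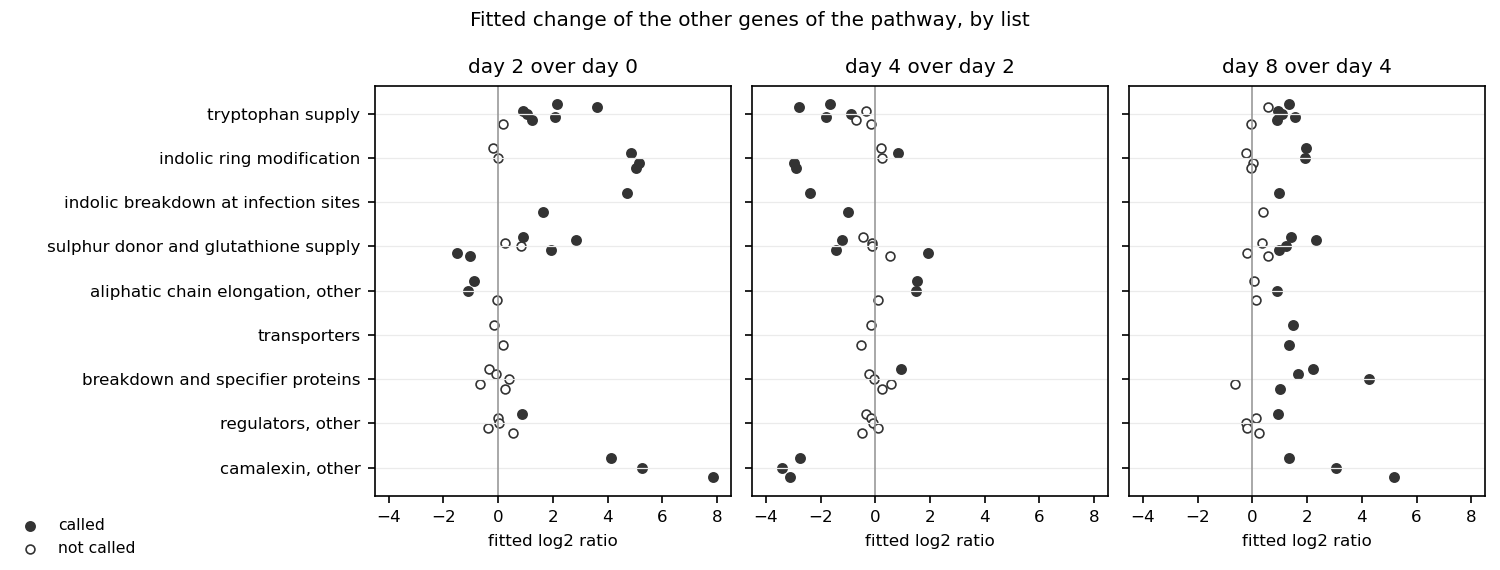
Fitted log2 ratio of the later over the earlier day (x axis) for 39 further genes of the pathway, grouped by list (rows), at the 3 steps. Filled points were called and open points were not; all 3 further camalexin genes lie above 4 at day 2 over day 0 and below -2.7 at day 4 over day 2.

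Genes that mark elicitor, touch and wound responses were read beside the pathway. Of all tested genes, 8.47% were higher and 5.42% lower at day 2 over day 0. The shares were 3.23% and 5.58% at day 4 over day 2 and 12.3% and 5.23% at day 8 over day 4. All 3 elicitor-response genes were higher at day 2 (FRK1 3.67, MPK3 1.75 and WRKY53 1.04) and 2 were lower at day 4, with array medians between 1.46 and 2.45 and between -2.03 and -1.03. None was called at day 8 over day 4, where their array medians lay between -0.23 and 0.05. Of 3 touch genes, TCH3 and TCH4 were higher at day 2 (4.00 and 2.48), lower at day 4 (-2.84 and -1.86) and higher at day 8 (1.503 and 1.90), and TCH2 was called at no step. Of 5 wound and jasmonate genes, 3 were higher and 1 lower at day 2, 2 higher and 1 lower at day 4, and 5 higher at day 8, where their array medians lay between 1.295 and 3.10. Of 4 genes of mature green tissue, 1 was lower at day 2 and none was called at the later steps. All these markers were well above background in some channels of every time point, and their part in the changes of the glucosinolate and camalexin genes was not tested.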

How the data were processed

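Two-colour Agilent arrays held 12 hybridisations of 4 replicate sets, each comparing consecutive days, with the later day in Cy5 in sets 1 and 3 and in Cy3 in sets 2 and 4. The deposited series table gives log10 ratios of Cy5 over Cy3 per probe, and the authors' scanner files give the intensity of each channel as read by Feature Extraction (version 10.5.1.1). The later processing by the authors was not used. The log10 ratios were signed so that a positive value means higher at the later day, put on the log2 scale and fitted with limma 3.58.1 (R 4.3.3) with the 3 steps and a dye term, and p-values were adjusted over 28247 probes. Day 8 over day 0 is the sum of the steps.

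A probe was tested if, at 1 time point or more, 50% or more of its channels were flagged well above background by the scanner, and 718 marked spots were left out. The array held 43643 probes other than controls and 28327 loci, and 1158 of the tested probes carried no locus. Members were matched by exact locus. Of the tested loci, 99.3% were found in the TAIR10.1 gene table, and since the array was designed on TAIR8, no coordinates are given. Probe, promoter and protein sequences were not used here. The number of arrays limits precision. Day 2 and day 4 extracts each served on 2 arrays, and the arrays were fitted as independent.

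The labels place both channels of an array in 1 replicate set and give each set 3 arrays, 1 per step, so the set numbers pair the arrays by design. Residuals of same-numbered arrays correlated between -0.37 and -0.04, also for steps that share no extract. All members of the list are named, with full values for those called. Of the other pathway genes, the largest called change in each direction at each step is named, and ASB1, GTR1, GTR2, WRKY33 and those of the closing part were chosen after their values were seen. The members and lists were chosen with earlier results of these data known. Alternatives were normexp with loess, median centring, no filter, marked spots kept, no dye term, no variance trend, a replicate block, a 2-fold minimum, each set left out, and, chosen after seeing the data, the arrays with unmatched scanner files or the rescanned array left out. The statistics were tested on simulated data in which the noise of each array was independent. Such data could not test the fitting of arrays that share an extract as independent.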

Additional observations from a re-analysis of the deposited data

Results flagged for a closer look

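Among 108 groups of 4 arrays tested, 4 held an array far from the other 3, and chance gives such an array in about 1 in 20 groups. For MYB29 at day 4 over day 2, set 2 stood at 0.69 and the others between 0.00 and 0.07, on a gene not well above background at either day. For the glucosyltransferase UGT74C1 at day 4 over day 2, set 4 stood at -1.07 and the others between 0.05 and 0.13. For the sulfotransferase SOT18 at day 8 over day 4, set 2 stood at 1.44 and the others between 0.95 and 1.00. For AOP3 at the same step, set 2 stood at 1.63 and the others between 0.19 and 0.41. The last 2 values come from the array that was scanned apart from its slide.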

How the results depend on the processing

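With normexp and loess on the 10 matching arrays, the calls were 7 higher and 0 lower at day 2 over day 0, 0 higher and 5 lower at day 4 over day 2, 6 higher at day 8 over day 4, and 2 higher and 0 lower at day 8 over day 0. The medians there were 0.13 and 0.095 for the aliphatic genes at the later steps, 1.22 for the indolic genes at day 8 over day 4, and 3.19, -1.98 and 0.16 for camalexin, and the net changes of MYB122 (-0.11) and CYP71A12 (0.030) changed sign. This setting lost 53 calls. Without the filter on dim probes the aliphatic medians were 0.25 and 0.27 at the later steps. Without the arrays of unmatched scanner files 8 genes were lower at day 2. With CYP79B2 and CYP79B3 counted as camalexin genes, that median was 2.53 at day 8 over day 4. With a replicate block the counts were 11 higher and 5 lower, 9 and 9, and 18 and 0 at the 3 steps and 18 higher and 1 lower over the course, and the net rises of MYB122 (adjusted p = 0.0742) and TGG1 (0.0562) were lost and no other call. Leaving out each set in turn gave 8 to 11 higher and 4 to 6 lower at day 2, 4 to 12 and 7 to 10 at day 4, 17 to 20 and 0 to 1 at day 8, and 15 to 21 higher and 1 lower over the course, with the fewest at day 4 without set 3 (4) and without set 2 (5). The medians then lay between -0.48 and -0.21, 0.71 and 1.02, and 0.58 and 0.81 (aliphatic), 2.65 and 3.52, -2.16 and -1.62, and 2.05 and 2.54 (indolic), and 5.04 and 5.26, -3.78 and -3.51, and 0.93 and 1.73 (camalexin). Of 1278 single calls recomputed, 1159 stayed, 117 lost the threshold and 2 changed sign. MYB29, MYB122, IPMDH1 and BAT5 were above background in no channel of a compared day, and MAM1, CYP79F1 and CYP71A12 in 1 channel. Among the further pathway genes, CYP81F3, CYP81F4 and IPMI SSU3 were above background in no channel of a compared day.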

Other observations

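Of 5 tested genes for breakdown and specifier proteins, which act on finished glucosinolates after tissue damage, 4 were higher at day 8 than at day 4, beside 12.3% of all tested genes. ESM1 was not called (-0.63, adjusted p = 0.274), and NSP2, TGG4 and TGG5 were not tested. ESP, the epithiospecifier protein that turns breakdown towards nitriles, gave 2.01, 2.13, 2.23 and 2.43 (2.20 ± 0.12, SE, n = 4, adjusted p = 6.45e-08). NSP5, a nitrile specifier protein, gave 5.04, 4.38, 3.90 and 3.73 (4.26 ± 0.38, SE, n = 4, adjusted p = 2.26e-06). Both were higher on every array.

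The 5 tested genes that modify the indole ring did not share a course. The methyltransferases IGMT1 and IGMT2, which act after CYP81F2, were higher at day 2 than at day 0 (5.13 and 5.04), lower at day 4 than at day 2 (-2.98 and -2.89) and near 0 at day 8 over day 4 (0.00 and -0.06). CYP81F3, a relative of CYP81F2, was higher at day 2 than at day 0 (4.85) and again at day 4 compared with day 2 (0.85, adjusted p = 0.00679), and was not called at day 8 over day 4 (-0.24). Its relatives CYP81F1 and CYP81F4 were called only at day 8 over day 4, both at 1.94. CYP81F3 was well above background in no channel of day 0, and its rise at day 2 had a bound of at least 2.10-fold. CYP81F4 was well above background only at day 8, through which it passed the filter. Its ratio was 0.00 in set 4, and its bound was at least 1.09-fold. PEN2, the atypical myrosinase that cleaves indolic glucosinolates at infection sites, gave 4.70, -2.38 and 0.97 at the 3 steps and was called at each. APK2, a kinase that supplies the sulphate donor, gave 2.83, -1.23 and 2.33 and was likewise called at each. WRKY33, the activator of PAD3 after infection, gave 4.14, -2.77 and 1.32.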
